A study of Homo sapiens with 14 samples.

Results

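Kasumi-1 is a human acute myeloid leukaemia cell line that carries the t(8;21) translocation, which joins the transcription factor gene RUNX1 (AML1) to the corepressor gene RUNX1T1 (ETO). Here 3 expression arrays of Kasumi-1 cells that received siRNA against the fusion transcript AML1-ETO by Amaxa nucleofection, a form of electroporation, were compared with 2 arrays of cells that received luciferase siRNA by the same method. These 5 arrays are all those of the 2 groups among the 14 arrays analysed here, and every one of the 22283 probe sets of each array was read. Both groups received 1.5 µM siRNA and were sampled at 96 h. Untransfected replicate 2 was not analysed here. The other groups used were 1 array of cells nucleofected with no siRNA, 2 arrays of untransfected cells, and 3 arrays each of AML1-ETO and luciferase siRNA delivered at 240 nM with the lipid reagent siLentFect. All 14 arrays are of this 1 line with its own genome, so no group is a model of normal myeloid cells or of other t(8;21) leukaemias. The labels do not say whether replicates were separate cultures, so the p-values reflect only array-to-array spread, part or all of which may be technical.

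AML1-ETO keeps the DNA-binding Runt domain of RUNX1 and replaces its activating part with almost all of ETO, a scaffold for corepressor complexes that contain histone deacetylases. It is known for repressing RUNX1 target genes and for holding leukaemic blasts at an immature granulocytic stage. Neutrophil precursors make azurophil granule proteases such as cathepsin G and elastase early, and specific granule and surface proteins later.

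The deposited values are intensities scaled by the authors so that the mean was 138.5 on every array. They were set to a floor of 20, below which 38.4% to 44.3% of probe sets lay, and put on the log2 scale; 1 probe set was kept per gene and the upper 60% of genes by mean intensity, 7178 genes, were tested. The median absolute log2 difference between arrays was 0.22 to 0.24 among the AML1-ETO arrays, 0.23 between the luciferase arrays and 0.28 to 0.32 between the groups. The GAPDH 3′ to 5′ signal ratio, a measure of RNA integrity and labelling, was lower on every AML1-ETO array (mean log2 ratio -0.14 ± 0.04, SD, n = 3) than on either luciferase array (0.14 ± 0.15, SD, n = 2; exact permutation p = 0.1, two-sided, the smallest that 3 against 2 arrays can give). The ACTB ratio, the scale factor, the share of probe sets below the floor and the share of signal in the 10 brightest probe sets gave exact permutation p from 0.2 to 0.8. Of the markers of the line, MPO (5700 to 7572), KIT (1720 to 2153), SPI1 and CD34 were present on all 5 nucleofection arrays, and ANPEP was below the floor on all 5. CD38 read 30.7 and values under the floor on the AML1-ETO arrays against 39.7 and 59.7 with luciferase siRNA, a difference of -1.08 that was not called (adjusted p = 0.142). Among 5 lists of markers of other cells, 1 tested gene, NKG7, was called and is described below. Of the markers on the array, 11 of 16 T and NK cell, 5 of 10 B cell, 14 of 19 erythroid and megakaryocytic, 9 of 11 mast cell, eosinophil and basophil, and 15 of 20 markers of cells outside the blood were above the floor on at least 1 of the 5 arrays. The T cell genes CD3G, LCK and ZAP70, the B cell genes CD79B and VPREB1, and the erythroid genes ALAS2 and EPB42 were among those at the floor on all 5.

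The target transcript was measured first, as a check of the labels. The 4 probe sets that carry the name RUNX1T1 can read the ETO part of the fusion and any RUNX1T1 RNA of its own. Which of them match sequence kept in the fusion was not tested. RUNX1 itself was not analysed here, because its probe sets carry several gene symbols. Probe set 205529_s_at read 317.8, 328.2 and 251.3 on the AML1-ETO arrays against 644.5 and 762.7 on the luciferase arrays. Nucleofection without siRNA gave 581.6 and the untransfected cells 618.6 and 514.1, so every array without the AML1-ETO siRNA was above every array with it. In a fit over all 22283 probe sets, in which 1.86% were called, the fall of this probe set was -1.24 in log2 units (SE 0.15, adjusted p = 0.00482), a change of -57.6%. Probe set 205528_s_at fell by 1.08 (SE 0.20, adjusted p = 0.0342), from 161.5 and 241.5 to 76.3, 112.6 and 95.1. Probe set 216831_s_at read 40.8 and 45.1 in luciferase cells and was under the floor on all 3 AML1-ETO arrays, so its fall of 1.10 (adjusted p = 0.0279) is a lower bound. Probe set 216832_at differed by -0.35 (SE 0.19, adjusted p = 0.501) and its arrays overlapped.

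The call of 205528_s_at was lost without AML1-ETO replicate 1 or 3 or luciferase replicate 2 (-0.79 without the last), and that of 216831_s_at without any 1 AML1-ETO array or luciferase replicate 2. With the 5 nucleofection arrays fitted alone, the fall of 205529_s_at had an adjusted p of 0.165. By lipid the same probe set differed by -0.34 (adjusted p = 1), and the change by nucleofection minus that by lipid was -0.90 in log2 units, which was not called (adjusted p = 0.156).

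**Figure D1:**
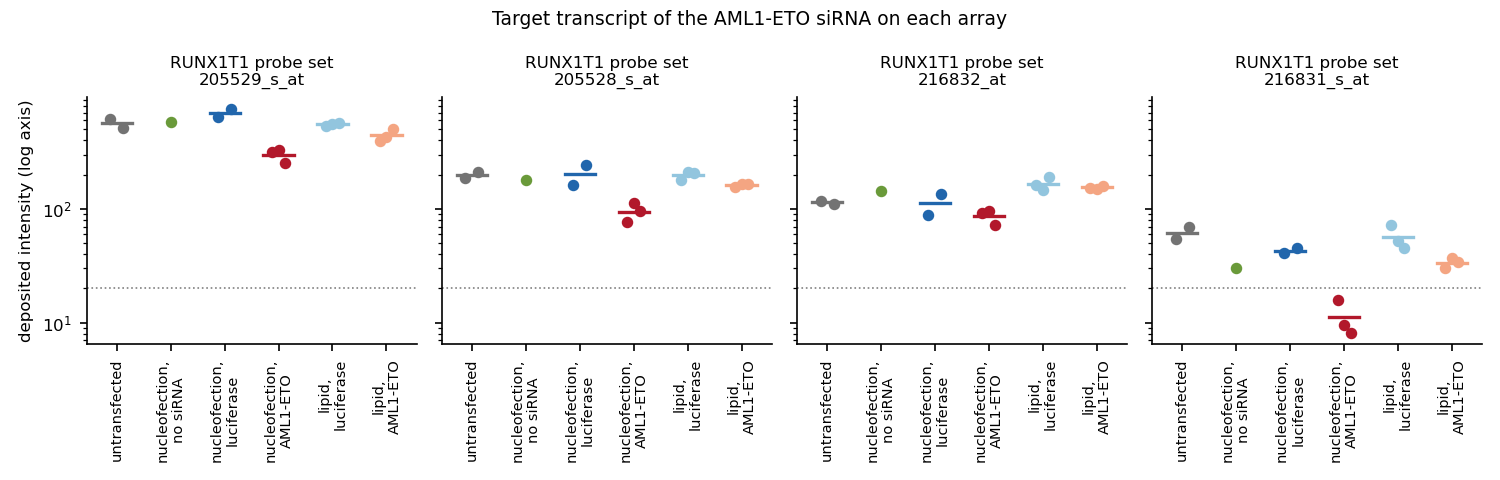
Deposited intensity of the 4 RUNX1T1 probe sets on each of the 14 arrays (points, log axis), by group, with bars at group means and a dotted line at the floor of 20. On 205529_s_at the 3 AML1-ETO nucleofection arrays lie between 251.3 and 328.2, below every other array; on 216832_at the nucleofection groups overlap.

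Of 7178 genes tested, 188 (2.62%) were called at an adjusted p below 0.05, with 117 higher (1.63%) and 71 lower (0.989%) in AML1-ETO siRNA cells. Without adjustment 1356 genes had a p below 0.05. The median difference of all genes was -0.11 on the log2 scale, and 68 of the higher but 20 of the lower genes differed by at least 1. The 5 arrays of all 188 called genes did not overlap between the groups; this was so for 37.3% of all genes tested, 12% higher and 25.3% lower. When each array was centred on its median, the share of calls that were higher was 74.8% instead of 62.2%. It was 43.9% with a floor of 64, 42.7% without the filter on low values and 43.7% over all probe sets without a filter, so the majority of calls was lower under those 3 settings. Other probe sets of the same genes, above the same mean level, had the same sign in 54 of 59 for higher genes. For lower genes this was 24 of 26, with a median of -0.39, and over all genes tested 63.7%. An unadjusted limma p below 0.05 with the same sign was seen in 41 of the 59, 8 of the 26 and 440 of 2997 over all genes.

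The number of calls rests on the spread shared with all 14 arrays. The 5 arrays alone gave 23 calls, of which 22 were among the 188, and the fit with the GAPDH ratio as a covariate gave 14, all among the 188. Leaving out an array gave 94, 120 and 80 calls without AML1-ETO replicates 1, 2 and 3, and 52 and 57 without luciferase replicates 1 and 2. Under all 17 alternative settings 9 genes stayed called in the same direction, all of them higher: CTSG, CD24, SRGN, CST7, IGFBP7, TYROBP, RNASE2, AZU1 and LAPTM5. Of these, 5 encode granule proteins, CD24 is a surface antigen of neutrophils, TYROBP and LAPTM5 are genes of the monocyte list, and IGFBP7 is a secreted binding protein.

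**Figure D2:**
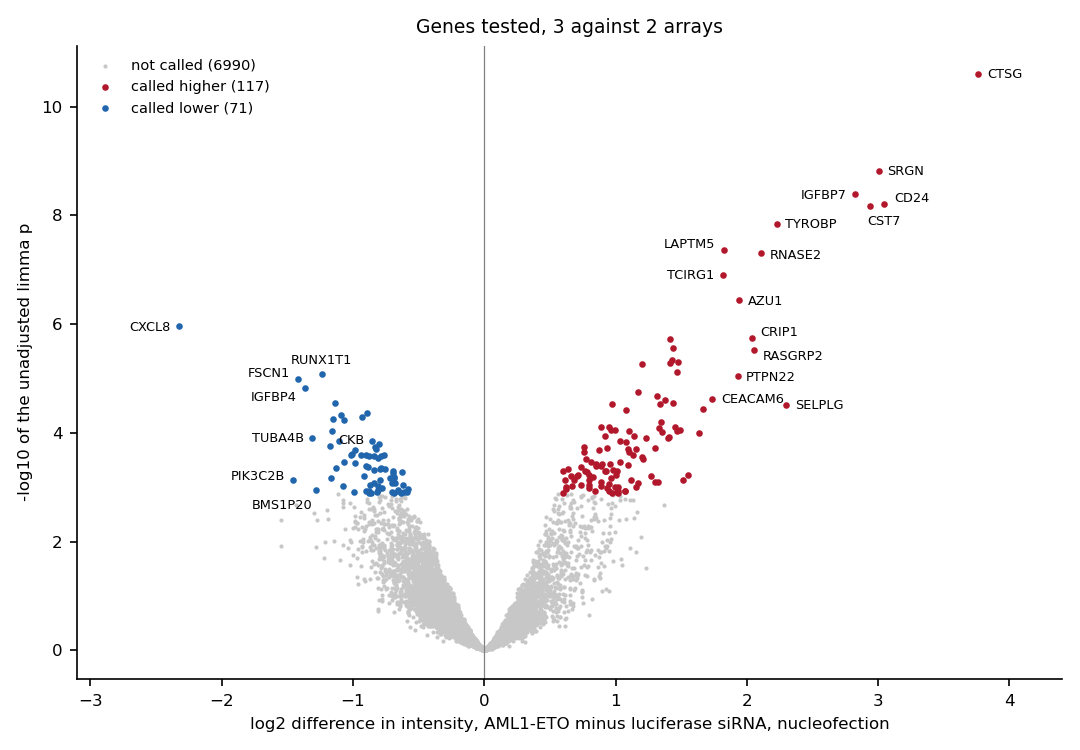
Each point is 1 of 7178 genes: the log2 difference of AML1-ETO minus luciferase siRNA by nucleofection (x axis) against -log10 of the unadjusted limma p (y axis), with 117 called higher in red and 71 called lower in blue. CTSG stands farthest right at 3.76 and CXCL8 farthest left at -2.32.

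Genes for granule proteins of neutrophil precursors were among the largest rises. Of 15 tested genes for azurophil and specific granule proteins, 10 were called higher and 0 lower, with a median difference of 0.95. Negative differences were seen in 2, the lowest -0.71. Over all genes tested, to be read beside this list and those below, 1.63% were called higher and 0.989% lower, with a median of -0.11. Against untransfected cells the list median was -0.01 after nucleofection with AML1-ETO siRNA, with 5 called higher and 3 lower. With luciferase siRNA it was -0.74, with 0 higher and 9 lower. The shares over all genes were 1.73% and 6.42% for AML1-ETO siRNA, and 1.24% and 3.9% for luciferase siRNA. By lipid the median of the granule list was 0.09. CTSG, cathepsin G, a serine protease of azurophil granules, read 5903, 5550 and 5705 with AML1-ETO siRNA and 419.2 and 422.7 with luciferase siRNA. Its level was 536.6 after nucleofection without siRNA and 1731 and 1121 in untransfected cells. The AML1-ETO arrays were thus the highest of all and the luciferase arrays the lowest. CTSG rose by a log2 difference of 3.76 (SE 0.18, adjusted p = 1.8e-07), or 13.6-fold. In bulk RNA, more cells with CTSG and more CTSG RNA per cell cannot be told apart, here and for every gene below.

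SRGN, serglycin, the proteoglycan that packs granule proteases, read 4366, 3848 and 3652 against 474.4 and 509.0, a rise of 3.00 (SE 0.20, adjusted p = 5.4e-06). Its other probe set rose by 2.60. CST7, cystatin F, an inhibitor of lysosomal cysteine proteases, read 143.9, 167.2 and 154.4 against 20.5 and a value under the floor, a rise of 2.94 (SE 0.22). RNASE2, the eosinophil-derived neurotoxin, a granule ribonuclease, read 1501, 1536 and 1296 against 278.5 and 400.7, a rise of 2.11 (SE 0.18). In each of these genes the AML1-ETO arrays were also above both untransfected arrays.

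AZU1, azurocidin, and ELANE, neutrophil elastase, lie in 1 gene cluster with CFD and encode azurophil granule proteins. AZU1 read 970.9, 1269 and 906.6 against 289.5 and 251.8, a rise of 1.94 (SE 0.20, adjusted p = 2.6e-04). Untransfected cells had 1629 and 1224, so here the AML1-ETO arrays overlapped untransfected cells, with a lower mean, and the luciferase arrays were far below them. ELANE had the same order, with 5428 ± 405.0 (SD, n = 3) against 2719 ± 34.7 (SD, n = 2) and a mean of 5451 in untransfected cells, and rose by 0.99 (SE 0.18). CFD, complement factor D, rose by 0.93 (SE 0.22) between the nucleofected groups, and its mean of 102.9 with AML1-ETO siRNA was below the 240.3 of untransfected cells. LYZ, lysozyme, rose by 0.95 (SE 0.23) and CD63, a granule membrane tetraspanin, by 0.60 (SE 0.15). MS4A3, a membrane protein of granulocyte and monocyte progenitors, read 57.4 ± 14.8 (SD, n = 3) and was under the floor in both luciferase arrays, so it was at least 2.80-fold higher. With each of the 5 arrays left out in turn, MS4A3 and ELANE kept their call in 3 fits, CFD and LYZ in 1 and CD63 in 0. Across the 17 settings the list had between 5 and 10 calls and its median lay between 0.35 and 1.21. Here and for the lists below, settings over all probe sets count several per gene, and settings without the filter test more genes.

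Genes of neutrophil maturation and surface followed with 4 of 12 tested called higher and 0 lower, and a median of 0.52. Negative differences were seen in 3, the lowest -0.63. CD24, a sugar-coated surface antigen anchored by lipid, read 446.8, 439.1 and 470.6 against 53.6 and 55.9, a rise of 3.05 (SE 0.22, adjusted p = 9.8e-06). Untransfected cells had 339.7 and 204.1 and nucleofection without siRNA 90.6. The 5 other CD24 probe sets differed by 1.04 to 2.93, all positive. SELPLG, the P-selectin ligand PSGL-1, read 149.9, 128.5 and 159.8 against 20.6 and 42.3, a rise of 2.30 (SE 0.37). CEACAM6, an adhesion molecule of granulocytes, read 145.6, 169.4 and 121.8 against 38.1 and 49.2, a rise of 1.74 (SE 0.27). FUT4, the enzyme that makes the CD15 sugar epitope, rose by 0.95 (SE 0.17), with 321.3 ± 46.6 (SD, n = 3) against 165.5 ± 13.9 (SD, n = 2). Another FUT4 probe set differed by 0.43 (adjusted p = 0.361 over all probe sets). Without luciferase replicate 1 SELPLG and CEACAM6 were not called, and FUT4 kept its call in 3 of the 5 fits with 1 array left out. Across the 17 settings, some of which count probe sets and not genes, this list had 1 to 12 calls and a median from 0 to 0.73.

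Of 10 tested monocyte and macrophage genes 5 were called higher and 0 lower, with a median of 1.15. A negative difference was seen in 1, at -1.275, which was not called. TYROBP, the adaptor DAP12 that carries an activating motif for myeloid receptors, read 125.9, 94.4 and 107.7 against 26.1 and 20.6, a rise of 2.23 (SE 0.18, adjusted p = 1.7e-05). It was below the floor on both untransfected arrays. LAPTM5, a haematopoietic protein of the lysosomal membrane, read 2303, 2748 and 2551 against 714.6 and 710.9, a rise of 1.83 (SE 0.16). AIF1, an actin-binding protein of macrophages, rose by 1.47 (SE 0.20), and 2 of its other 3 probe sets differed by 2.71 and 1.82 while the third differed by -0.21. LST1, a leukocyte membrane protein, rose by 1.34 (SE 0.21) and S100A8, a subunit of calprotectin, by 1.40 (SE 0.26). In all 5 genes the mean of the AML1-ETO arrays exceeded that of untransfected cells, by 1.14 to 2.44 on the log2 scale. With 1 array left out in turn LST1 kept its call in 4 of 5 fits and S100A8 in 3. Across the 17 settings this list had 2 to 13 calls and a median from 0 to 1.44. Calls can exceed the 10 genes because some settings count probe sets or test more genes.

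NKG7, a granule membrane protein that stood in the list of T and NK cell markers, read 52.2, 55.2 and 54.2 with AML1-ETO siRNA. It read 1.05 and 1.53 with luciferase siRNA and was under the floor in untransfected cells and after nucleofection without siRNA. Against the floor it was at least 2.69-fold higher (adjusted p = 0.00203). The other 5 tested T and NK markers were not called, and the summed level of the 16 markers on the array was 478.6 to 586.4 with AML1-ETO siRNA and 439.1 to 531.2 with luciferase siRNA.

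The promoters of the 4 genes with the largest changes that had an entry in the RefSeq promoter table (GRCh38.p14) are shown so that the control regions of the strongest responders can be compared. Each is the 250 bases before the annotated start, read 5′ to 3′ on the gene's own strand. Capitals mark matches, on either strand, to the RUNX motif (TGTGGT or TGCGGT), the C/EBP half-site GCAAT or the ETS motif GAGGAA, whose reverse complement reads TTCCTC. Only the ETS letters were found in these windows. The CTSG window is chr14:24576251-24576500, the CD24 window chr6:106975628-106975877, the TYROBP window chr19:35908296-35908545, all on the minus strand, and the CXCL8 window chr4:73740319-73740568, on the plus strand.
CTSG: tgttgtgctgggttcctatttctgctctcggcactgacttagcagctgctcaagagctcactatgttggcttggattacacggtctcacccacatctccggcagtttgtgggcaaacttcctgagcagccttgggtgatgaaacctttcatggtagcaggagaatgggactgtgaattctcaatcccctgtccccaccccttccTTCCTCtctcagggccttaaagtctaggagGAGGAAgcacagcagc
CD24: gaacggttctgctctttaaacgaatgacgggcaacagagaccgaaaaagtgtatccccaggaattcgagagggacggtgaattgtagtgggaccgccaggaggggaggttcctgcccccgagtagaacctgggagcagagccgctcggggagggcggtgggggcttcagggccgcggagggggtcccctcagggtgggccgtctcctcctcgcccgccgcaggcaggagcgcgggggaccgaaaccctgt
TYROBP: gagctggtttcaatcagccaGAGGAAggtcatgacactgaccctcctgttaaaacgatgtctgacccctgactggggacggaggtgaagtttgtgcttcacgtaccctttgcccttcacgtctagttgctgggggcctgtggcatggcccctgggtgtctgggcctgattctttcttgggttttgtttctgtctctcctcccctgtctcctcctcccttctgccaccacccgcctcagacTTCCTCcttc
CXCL8: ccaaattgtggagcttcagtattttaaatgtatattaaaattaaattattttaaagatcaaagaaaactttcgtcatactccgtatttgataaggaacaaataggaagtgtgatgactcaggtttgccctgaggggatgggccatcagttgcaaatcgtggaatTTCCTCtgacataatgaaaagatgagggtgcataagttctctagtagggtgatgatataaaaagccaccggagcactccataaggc

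CTSG held the ETS letters 16 and 46 bases before its start, TYROBP 10 and 230 bases, and CXCL8 86 bases, while CD24 held none of the motifs. A window was given for 93 of the 117 higher genes, 56 of the 71 lower genes and 6005 of the 7178 genes tested. Either RUNX motif stood in 15.1% of the windows of higher genes, 14.3% of lower genes and 15.3% of all genes. The ETS motif stood in 28%, 16.1% and 22.9%, and the C/EBP half-site in 21.5%, 12.5% and 16.5%, in the same order. A match of such short letters describes the window and is not a bound site.

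Rises outside these lists included IGFBP7, a secreted insulin-like growth factor binding protein, which read 1086, 1150 and 1044 against 127.2 and 187.4. It rose by 2.82 (SE 0.20, adjusted p = 9.8e-06) and another probe set by 2.63, while the third differed by 0.13. RASGRP2, an exchange factor for Rap1, read 114.2, 131.5 and 95.2 against 36.8 and a value under the floor, a rise of 2.05 (SE 0.26). Its other 3 probe sets differed by 1.31, -0.27 and -0.12. CRIP1, a LIM domain protein, read 62.5, 88.7 and 99.7 and was under the floor on both luciferase arrays, at least 4.10-fold higher. PTPN22, a tyrosine phosphatase of immune receptor signalling, read 84.8, 75.0 and 69.8 and was likewise under the floor with luciferase siRNA, at least 3.81-fold higher, while its other probe sets differed by 0.31 and 0. All 4 genes had every AML1-ETO array above every luciferase, no-siRNA and untransfected array.

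Lysosomal genes had mostly positive differences. Of 35 tested hydrolases and membrane proteins 5 were called higher and 0 lower, 30 differences were positive, and the median was 0.27. Against untransfected cells the list median was -0.05 with AML1-ETO siRNA and -0.39 with luciferase siRNA, beside -0.17 and -0.06 over all genes. TCIRG1, a proton pump subunit of the V-ATPase family, read 87.8, 74.3 and 67.1 against 19.3 and 23.2, a rise of 1.82 (SE 0.17, adjusted p = 1.0e-04). Untransfected cells had 61.0 and 76.5 and nucleofection without siRNA 21.8, so the AML1-ETO arrays were at the untransfected level. CTSD, cathepsin D, rose by 1.08, FUCA1, a fucosidase, by 1.35, NPC2, a cholesterol carrier, by 0.76 and LAMP2, a membrane glycoprotein, by 0.76. Other LAMP2 probe sets differed by 0.52 and 0.63, neither called over all probe sets. The separate list of 15 other V-ATPase subunits, without TCIRG1, had 0 calls. With 1 array left out in turn CTSD and FUCA1 kept their calls in 4 of 5 fits, and NPC2 and LAMP2 in 1. The call count of the lysosomal list, in probe sets under some settings, ranged from 0 to 10 over the alternative settings. The phagocyte NADPH oxidase list had 1 call of 4, RAC2, the small GTPase of the complex, which rose by 0.74 (SE 0.16), while its flavocytochrome subunit CYBA differed by 0.56 (adjusted p = 0.0508).

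Of 13 tested granulocyte and monocyte transcription factors 2 were called, both higher: ID2, an inhibitor of helix-loop-helix factors, by 1.30 (SE 0.25), and IRF8, a factor of monocyte development, by 0.97 (SE 0.24, adjusted p = 0.0498). CEBPE, the C/EBP factor of late granulocyte maturation, had 223.3 ± 34.4 (SD, n = 3) against 134.4 ± 31.3 (SD, n = 2), a difference of 0.74 with an adjusted p of 0.0535. ID1 differed by -0.71 (adjusted p = 0.0559). Of 14 stem and progenitor genes 1 was called, the ETS factor ERG, which fell by 0.75 (SE 0.16, adjusted p = 0.0313), and 7 differences were positive and 7 negative. Another ERG probe set differed by -0.30 (adjusted p = 0.737 over all probe sets). A list of 11 tested genes reported elsewhere to respond to AML1-ETO had 3 calls, beside 2.62% called among all genes. IGFBP7 was higher, and RUNX1T1 and the G1 cyclin CCND2 were lower, the last by 0.62 (SE 0.14). Other CCND2 probe sets differed by -0.31 and -0.75, neither called over all probe sets. RUNX1T1 is a part of the fusion that the siRNA targets, so that call is a check of the knockdown and not a response. None of the 15 ETO relatives and corepressor genes was called. Of 15 interferon-induced genes 2 were called, BST2 (at least 2.01-fold higher) and IFITM2 (by 0.92), both with untransfected means above their AML1-ETO means, and the list of 12 MHC genes had 0 calls. HLA-B, an MHC class I gene that is not in that list and was picked out after its value was seen, rose by 0.76 (adjusted p = 0.0319), and its probe sets can share signal with other class I genes. It kept its call in 10 of the 17 alternative settings, and other HLA-B probe sets differed by 0.49 and 0.65, neither called over all probe sets. With 1 array left out in turn RAC2, CCND2, BST2 and IFITM2 kept their calls in 0 of 5 fits, and ID2, IRF8 and ERG in 1.

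**Figure D3:**
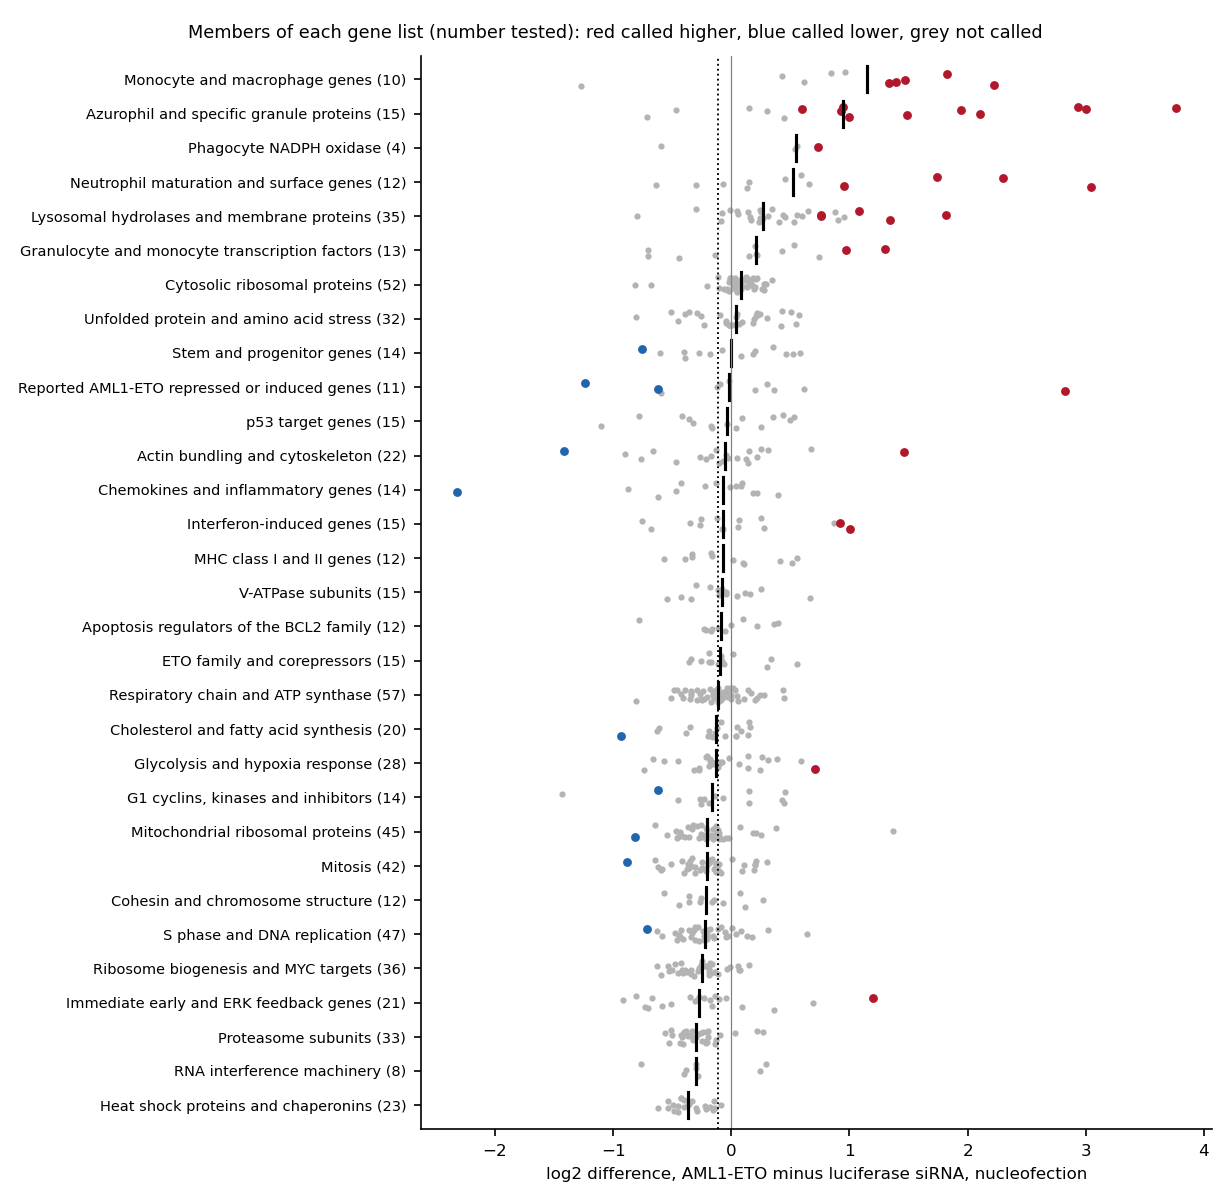
Log2 differences of AML1-ETO minus luciferase siRNA by nucleofection for the tested members of 31 gene lists (points; red called higher, blue called lower, grey not called), with a bar at each list's median and a dotted line at the median of all genes, -0.11. Monocyte and granule lists lie at the top with medians of 1.15 and 0.95, and heat shock proteins and chaperonins at the bottom with -0.37 and no call.

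Among the falls, CXCL8, interleukin-8, a chemokine that attracts neutrophils, was the largest. It read 126.0, 139.5 and 228.4 with AML1-ETO siRNA against 820.8 and 768.8 with luciferase siRNA. Nucleofection without siRNA gave 683.7 and untransfected cells 755.3 and 943.5, so the AML1-ETO arrays alone were low. It fell by 2.32 in log2 units (SE 0.27, adjusted p = 7.2e-04), and its second probe set fell by 2.01. It was the 1 call among 14 chemokine and inflammatory genes. CXCL8 lost its call with the GAPDH ratio as a covariate and kept it under the other 16 settings.

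FSCN1, fascin, which bundles actin filaments, read 34.1, 37.9 and 23.9 against 82.4 and 85.2, a fall of 1.42 (SE 0.20, adjusted p = 0.00319), while its other probe set differed by -0.42 (adjusted p = 0.696 over all probe sets). In the actin list of 22 genes it was the call lower, and CAPG, an actin filament capping protein, the call higher, by 1.47 (SE 0.20). IGFBP4, another insulin-like growth factor binding protein, read 91.0, 102.8 and 63.4 against 231.9 and 201.9, a fall of 1.36 (SE 0.20). Untransfected cells had 434.4 and 377.1, so both nucleofected groups were below them. CKB, brain-type creatine kinase, read 42.7, 39.8 and 40.0 against 71.9 and 118.4, a fall of 1.18. PLIN2, a coat protein of lipid droplets, read 96.9, 97.2 and 102.2 against 188.3 and 236.3, a fall of 1.09 (SE 0.18), while its other probe set differed by -0.55 (adjusted p = 0.755 over all probe sets). FASN, fatty acid synthase, fell by 0.93 (SE 0.16, adjusted p = 0.0098), the 1 call among 20 genes of cholesterol and fatty acid synthesis. Its means were 281.7 ± 25.8 (SD, n = 3), 535.9 ± 22.3 (SD, n = 2) and, in untransfected cells, 1036. Without luciferase replicate 1 IGFBP4 was not called, without luciferase replicate 2 neither were CKB and PLIN2, and FASN kept its call in 3 of the 5 fits.

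Most of the other large falls were of dim probe sets. HTT, huntingtin, read 30.5, 33.2 and 23.7 against 63.0 and 63.7, a fall of 1.14, but its other probe set differed by 0.23. CASK, a membrane scaffold with its other probe set at the floor, fell by 1.13, HOMER2, a synaptic scaffold, by 1.15 and ENTREP3 by 1.11. TAF1, a subunit of the basal factor TFIID, fell by 1.17 on 1 probe set, and the other differed by -0.08. SERPINB3, also with its other probe set at the floor, fell by 1.16 and can share signal with its close copy SERPINB4, as the pseudogenes BMS1P20 (by 1.28, adjusted p = 0.0490) and TUBA4B can with their relatives. TUBA4B and PIK3C2B, a class II phosphoinositide kinase, were under the floor on all 3 AML1-ETO arrays, at least 2.48-fold and 2.75-fold lower. Each of these 9 genes lost its call with luciferase replicate 1 or 2 left out.

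Lists of genes for growth and protein upkeep are given beside the median of all genes, -0.11, and the 2.62% called among all genes. That median is below 0, so most genes tested had a negative difference. A majority of negative members, here and in the lists of the next paragraph, is to be read beside that. All 23 tested heat shock proteins and chaperonins had negative differences with a median of -0.37 and 0 calls; examples are CCT2, a chaperonin subunit (-0.49, adjusted p = 0.0897), and HSPD1 (-0.43, adjusted p = 0.115). The same list had a median of -0.04 by lipid. Of 33 proteasome subunits 30 were negative with a median of -0.30 and 0 calls. Ribosome biogenesis genes had 32 of 36 negative and a median of -0.25, again with 0 calls. Cytosolic ribosomal proteins had a median of 0.08, and 0.01 after quantile normalization.

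Of 47 S phase genes 40 were negative with a median of -0.22 and 1 call, the cyclin CCNE2 (fell by 0.72), while 1 of 42 mitotic genes was called, the cyclin CCNF (fell by 0.88). Another CCNE2 probe set differed by -0.37 (adjusted p = 0.824 over all probe sets). The phosphatase CDC25A, which opens the way to S phase, had 67.5 ± 24.6 (SD, n = 3) against 173.4 ± 24.0 (SD, n = 2), a difference of -1.43 that was not called (adjusted p = 0.0628). Immediate early and ERK feedback genes had 17 of 21 negative with a median of -0.27, and their 1 call, the RNA-decay factor ZFP36L2, was higher by 1.20 (SE 0.16). The mitochondrial ribosomal protein MRPS2 fell by 0.82 (1 of 45 called) and the hypoxia gene NDRG1 rose by 0.71 (1 of 28). With 1 array left out in turn CCNE2, CCNF and MRPS2 kept their calls in 1 of 5 fits and NDRG1 in 0. There were 0 calls among 57 respiratory chain, 32 unfolded protein response, 15 p53 target, 12 BCL2 family, 8 RNA interference and 12 cohesin genes.

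Each nucleofection group was then set beside untransfected cells. These comparisons share arrays with the one above, so their values are given side by side. AML1-ETO nucleofection against untransfected cells had 585 calls (8.15%; 124 higher, 1.73%, and 461 lower, 6.42%), and luciferase nucleofection against untransfected cells had 369 (5.14%; 89 higher, 1.24%, and 280 lower, 3.9%). For SRGN the AML1-ETO arrays were above untransfected cells by 2.05 and the luciferase arrays below them by -0.96. For CTSG the values were 2.04 and -1.73, for CST7 1.85 and -1.09, and for IGFBP7 1.70 and -1.12. All 8 of these differences were called, so these 4 genes departed from untransfected cells in opposite directions in the 2 groups. Among the 117 genes called higher, only these 4 had both calls. Of the 117, 39 were called above untransfected cells with AML1-ETO siRNA and 47 below them with luciferase siRNA. The 117 were chosen with the same arrays, so these counts are a description.

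TYROBP, at 2.44 and 0.21, CEACAM6, at 1.78 and 0.05, and LAPTM5, at 1.39 and -0.44, had the first value called and the second not. AZU1, at -0.44 and -2.39, TCIRG1, at 0.15 and -1.67, and FUT4, at -0.06 and -1.01, had the second value called and the first not, so the luciferase arrays were the ones below untransfected cells. CD24 was at 0.78 (adjusted p = 0.0508) and -2.27. Among the falls, CXCL8 was at -2.41 and -0.09, FSCN1 at -1.11 and 0.30, and RUNX1T1 at -0.92 and 0.31, again with the first value called and the second not.

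The array nucleofected without siRNA entered neither group and gives a reading with no test. For 97 of the 117 higher genes (82.9%) it was nearer to the luciferase mean than to the AML1-ETO mean, against 54.4% of all genes tested. For the 71 lower genes it was nearer to luciferase in 46 (64.8%). It was below untransfected cells for 93 of the 117 higher genes (79.5%), against 62.5% of all genes. Over all genes the median absolute log2 difference between this array and the luciferase arrays was 0.22 and 0.24, and between it and the AML1-ETO arrays 0.26 to 0.28.

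**Figure D4:**
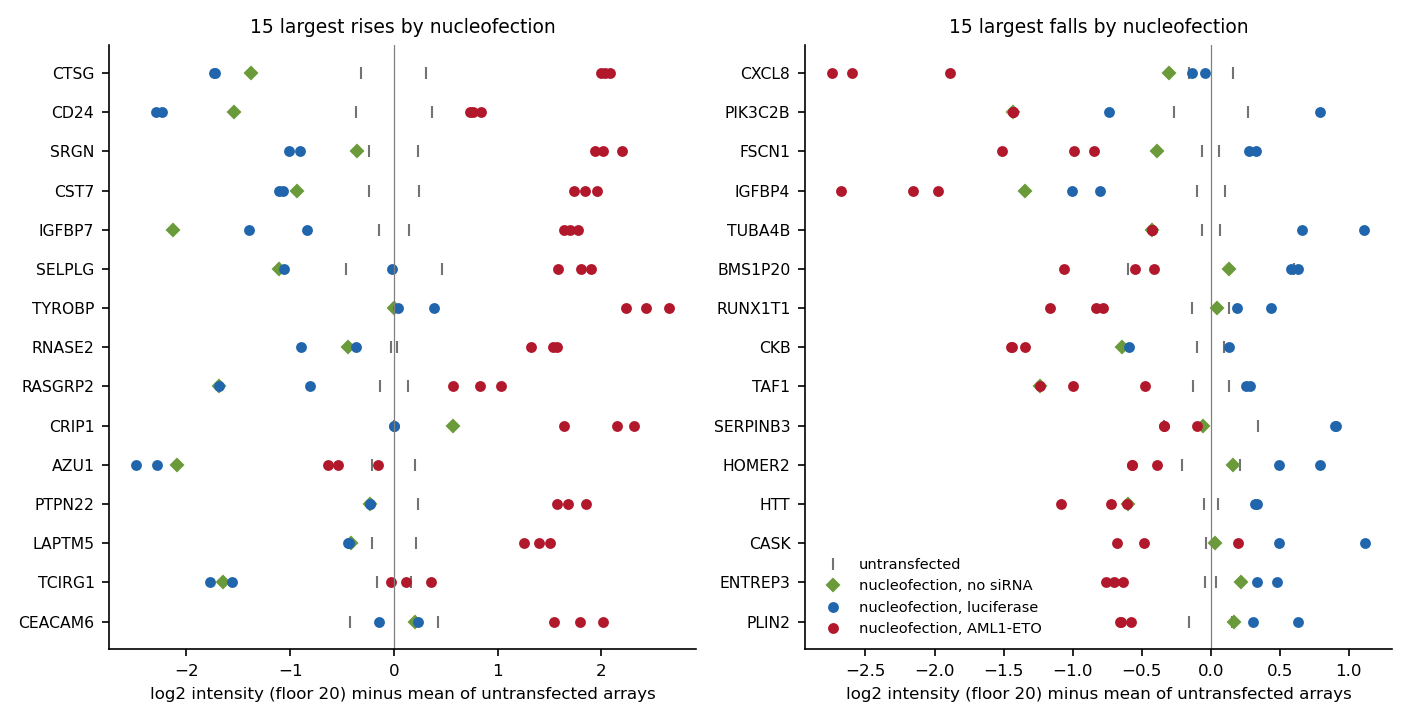
Log2 intensity (floor 20) of the 15 largest rises (left) and 15 largest falls (right) on each nucleofection array, minus the mean of the 2 untransfected arrays; ticks are untransfected arrays, diamonds nucleofection without siRNA, blue luciferase and red AML1-ETO siRNA. CTSG has red points near 2.04 and blue points near -1.73, while AZU1 and TCIRG1 have red points near the untransfected level and TYROBP has blue points there.

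The lipid arrays measured the same siRNAs at 240 nM and share no array with the nucleofection comparison; the dose and the method differ together and cannot be told apart. By lipid 9 of 7178 genes were called (0.125%), 8 higher (0.111%) and 1 lower (0.0139%). Of the 117 genes higher by nucleofection 98 (83.8%) were also positive by lipid, against 42.9% of all genes, with a median of 0.27 against 1.07 by nucleofection. Of the 71 lower genes 51 (71.8%) were negative by lipid, against 57.1% of all genes, with a median of -0.10. By lipid 7 of the 188 were called: CTSG (1.32), SRGN (1.17), CST7 (1.90), IGFBP7 (1.30), TYROBP (1.11), MS4A3 (2.64) and S100A8 (1.73). The 188 were chosen by their nucleofection values, so that the larger difference by nucleofection in 186 of them, against 4933 of all 7178 genes, is a description; the exceptions were MS4A3 and S100A8.

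The difference between the methods was called for 4 genes (0.0557%), all with the larger rise by nucleofection. CTSG read 3154, 2864 and 2982 with AML1-ETO siRNA by lipid against 1225, 1265 and 1114 with luciferase siRNA. Its rise by nucleofection exceeded this by 2.44 (SE 0.24, adjusted p = 0.00109). CD24 read 519.6, 387.8 and 547.0 against 211.2, 275.7 and 275.8 by lipid, and exceeded it by 2.12 (SE 0.30, adjusted p = 0.0204). SRGN exceeded its rise by lipid by 1.83 (SE 0.26, adjusted p = 0.0204). TCIRG1 did so by 1.74 (SE 0.23, adjusted p = 0.0191), having differed by 0.08 by lipid. NINJ2, an adhesion protein, was next at 1.38 (adjusted p = 0.0598). The means of luciferase siRNA were 1201 by lipid and 421.0 by nucleofection for CTSG, and 254.3 and 54.8 for CD24, beside 1426 and 271.9 in untransfected cells. With each of the 11 arrays of these 4 groups left out in turn CTSG kept this call, and CD24, SRGN and TCIRG1 lost it in 8, 8 and 6 of those fits, with differences of 1.97 to 2.25, 1.73 to 2.01 and 1.63 to 1.84. With the GAPDH ratio as a covariate 0 genes were called for this difference by limma, and 682 had an unadjusted p below 0.05.

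**Figure D5:**
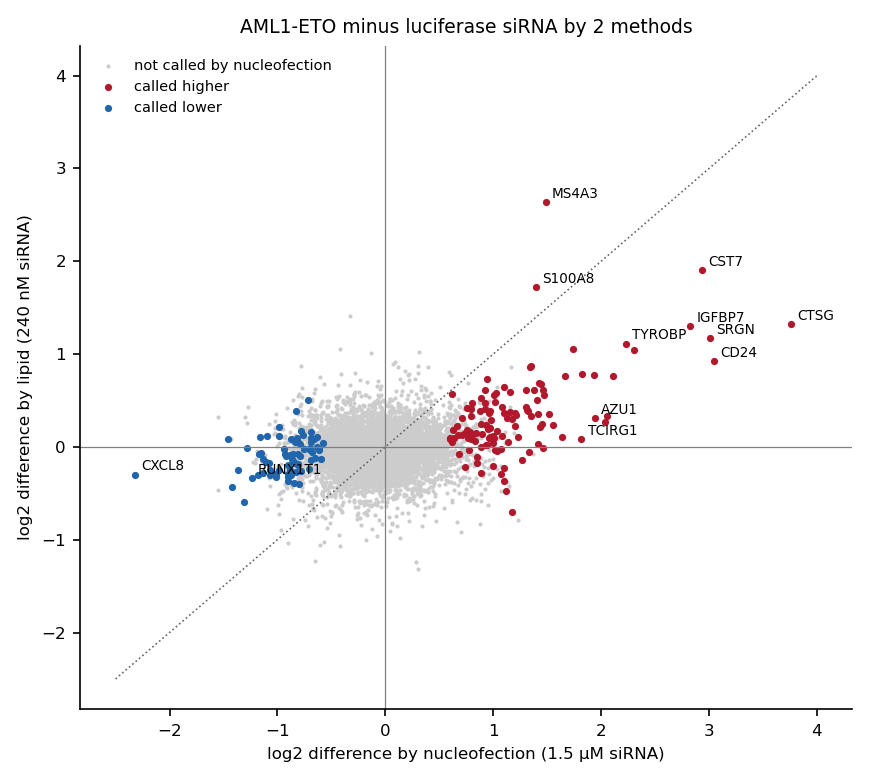
Log2 difference of AML1-ETO minus luciferase siRNA by nucleofection (x axis, 1.5 µM) and by lipid (y axis, 240 nM) for 7178 genes, with genes called by nucleofection in red (higher) and blue (lower) and a dotted line of equality. Most called genes lie nearer the horizontal axis than the line. Among the red points, MS4A3 and S100A8 alone lie above the line.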

How the data were processed

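The arrays are Affymetrix human expression arrays. The authors deposited linear intensities, 1 value per probe set; the submitters' processing notes name MAS5 as the tool. Their mean was 138.5 on every array. Values below 20 were set to 20 and put on the log2 scale. Probe sets with 1 gene symbol (19065 of 22283; 1043 had several, 2107 none, 68 were controls) were reduced to the brightest per gene, 11963 genes, and the upper 60% by mean over the 14 arrays, 7178, were tested (lowest mean 26.6). limma 3.58.1 in R 4.3.3 fitted 6 group means over 14 arrays (8 residual degrees of freedom). P-values were adjusted by Benjamini-Hochberg over all genes tested, with 0.05 as the threshold. The number of arrays limits the precision. A fold against a group wholly below the floor uses the floor and is a lower bound.

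Genes were named by rule: every RUNX1T1 probe set, the 15 largest non-overlapping calls each way with their other probe sets, list members called or otherwise the up to 4 with the smallest p, and the 5 smallest p for the difference between methods. The 31 gene lists and 6 marker lists (1010 symbols, 878 on the array) carry no set test. The members and lists were chosen with earlier results of these data known. The fit was tested on simulated data with normal spread and no floor, unlike the arrays. It recovered 31% of true changes of 0.75 and 95% of those of 1.5 in log2 units, with 4.55% false calls. Alternatives were the floor, normalization, filter, probe sets, variance model, arrays used, replicate block, GAPDH covariate, control group and leaving out each array. Same-numbered nucleofection arrays did not deviate together (r = -0.00063 and 0.02), so the numbers were not taken as pairs.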

Additional observations from a re-analysis of the deposited data

Results flagged for a closer look

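The change with AML1-ETO siRNA differed between nucleofection and lipid delivery for 4 genes in a test of the difference itself (limma, adjusted p over 7178 genes), each with the larger rise by nucleofection. The excess was 2.44 on the log2 scale for CTSG (adjusted p = 0.00109), 2.12 for CD24 (adjusted p = 0.0204), 1.83 for SRGN (adjusted p = 0.0204) and 1.74 for TCIRG1 (adjusted p = 0.0191). Dose and method differ together. CD24 means by nucleofection and lipid were 452.2 and 484.8 with AML1-ETO siRNA, and 54.8 and 254.3 with luciferase siRNA. Those of TCIRG1 were 76.4 and 69.3, and 21.3 and 65.2. For CTSG and SRGN the AML1-ETO means by nucleofection (5719 and 3955) exceeded those by lipid (3000 and 2389). Over the alternative settings the number of genes called for this difference ranged from 0 to 79, as given below.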

How the results depend on the processing

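The main count of 188 calls (117 higher, 71 lower) and the 4 calls between methods moved with the processing as follows, and the cause was not tested unless the construction shows it. A floor of 10 gave 7 calls between methods. A floor of 64 gave 119 lower calls, 37 between methods, and a difference of 0 for RUNX1T1 probe set 216831_s_at, whose values all lie near or below that floor. Quantile normalization gave 372 calls (256 higher, 116 lower) and 10 between methods. Median centring gave 211 higher calls and 9 between methods. Without the filter there were 295 calls (169 lower) and 48 between methods, and over all probe sets 414 (181 higher, 233 lower) and 79. All probe sets with 1 symbol gave 8 between methods. A variance trend with robust shrinkage gave 119 lower calls and 21 between methods.

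The 5 nucleofection arrays alone gave 23 calls (22 higher, 1 lower), and the falls of 205528_s_at and 205529_s_at, -1.08 and -1.24, were not called. With the GAPDH ratio as a covariate there were 14 calls (12 higher, 2 lower) and 0 between methods (limma; 682 genes had an unadjusted p below 0.05), and 205528_s_at at -1.41 and 216831_s_at at -1.30 were not called. With the array without siRNA added to the controls, 216831_s_at at -0.93 was not called. The fit with the replicate number as a block gave 108 calls (72 higher, 36 lower), 2 between methods, and -1.09 for 216831_s_at, not called; 99 of the 188 were kept.

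Leaving out a luciferase array leaves 1, which is assumed to vary like the other groups. Leaving out 1 array at a time gave 52 to 120 calls (42 to 65 higher, 10 to 58 lower) and 1 to 8 between methods. 205528_s_at ranged from -1.37 to -0.79 and 216831_s_at from -1.17 to -1.03. No difference of a RUNX1T1 probe set or of a called gene named by rule changed sign. Uncalled list members were not followed across the settings. Some list medians changed sign or reached 0, among them the reported AML1-ETO genes in 12 of 17 settings and the stem and interferon lists in 8 each. The MHC and p53 lists did so in 7 each and the V-ATPase list in 4. Medians of the neutrophil maturation and monocyte lists reached 0 in 3 and 2 settings. That of the granulocyte and monocyte transcription factors reached 0 in 1. Of the 188 genes, 23 kept their call in all 5 such fits.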
